A study of Mus musculus with 12 samples.

Results

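The kinin receptors, the kininogen, the kallikreins and the kinin-degrading peptidases were followed on the arrays through 10 genes, Bdkrb1, Bdkrb2, Kng1, Klkb1, Klk1, Ace, Mme, Cpm, Ece1 and Xpnpep1. All array probes whose RefSeq identifier belonged to one of these genes were taken, which gave 12 probes of 55681, and 10 genes of 20887 that a probe named. Kng1 and Mme had 2 probes each, and every other gene had 1. Neither receptor and neither kininogen probe was detected in any of the 24 array channels, whereas Ace, Cpm, Ece1 and Xpnpep1 were detected in all 4 conditions, Mme in part of the channels of each condition, and Klkb1 and Klk1 in few channels. No probe of the 10 genes passed the adjusted threshold in any comparison.

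The samples were differentiated neurospheres from the telencephalon of C57BL/6 mouse embryos at day 13. WT cells were wild type and untreated. APP_WT cells carried the APPswe/PS1dE9 transgenes, used as a model of Alzheimer's disease, in which the APP transgene joins mouse and human sequence, and were untreated. BK_APP cells had the same transgenes and received 1 µM bradykinin (BK), and HOE_APP cells had the same transgenes and received 1 µM HOE-140, at the start, on day 3 and on day 6 of differentiation. Day 7 was the day of RNA extraction, and 100 ng of each RNA received the Cy3 or the Cy5 dye. No treated WT cells were among the samples, so that the effect of each compound was measured in transgenic cells only. APP_WT was compared with WT, and BK_APP and HOE_APP were each compared with APP_WT, on 4 arrays a comparison. The RNAs of a pair were hybridized together, with the dyes exchanged between replicates 1 and 2 and replicates 3 and 4. The labels call the replicates biological and do not say how embryos or cultures were shared among them. The direction of the HOE_APP ratios is likely only, since the labels of both channels of those arrays name the same treatment. The titles, the layout of the BK_APP arrays and the source given for channel 1 settled the reading used here, and the opposite reading would turn the sign of every HOE_APP ratio and exchange the HOE_APP and APP_WT channels of those 4 arrays.

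Kinins are short peptides that are cut from kininogens by kallikreins. BK acts on the B2 receptor (Bdkrb2), which many cells carry at all times, and kinins that have lost the C-terminal arginine act on the B1 receptor (Bdkrb1), which is known to be induced by tissue injury and inflammation. HOE-140 (icatibant) is a peptide antagonist of the B2 receptor. Kinins live briefly, because membrane peptidases cut them within or next to the tissue in which they are released, and several of these peptidases, neprilysin (Mme) and endothelin-converting enzyme (Ece1) among them, are also known to degrade the amyloid-β peptide.

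The promoters of Bdkrb2, the gene of the receptor that BK and HOE-140 bind, and of Ace, 1 of the peptidase genes whose call between APP_WT and WT depended on the fit or the arrays, are shown as the sequence around the points where transcription starts. They are the 250 bases before and the 50 bases after the annotated start, from RefSeq on GRCm38.p6, on the strand of the gene. The Bdkrb2 promoter lies at chr12:105562922-105563221 on the plus strand, and the first of 2 annotated Ace promoters at chr11:105967698-105967997 on the plus strand. Capitals mark GGG and CC with any 5 bases between them, on either strand, the motif searched for NF-kB.
Bdkrb2: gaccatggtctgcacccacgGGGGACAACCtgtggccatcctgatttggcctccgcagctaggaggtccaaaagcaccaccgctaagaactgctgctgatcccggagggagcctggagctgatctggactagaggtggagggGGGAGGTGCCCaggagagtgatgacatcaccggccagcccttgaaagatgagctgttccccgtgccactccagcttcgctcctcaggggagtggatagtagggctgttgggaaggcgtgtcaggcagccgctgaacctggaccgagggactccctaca
Ace: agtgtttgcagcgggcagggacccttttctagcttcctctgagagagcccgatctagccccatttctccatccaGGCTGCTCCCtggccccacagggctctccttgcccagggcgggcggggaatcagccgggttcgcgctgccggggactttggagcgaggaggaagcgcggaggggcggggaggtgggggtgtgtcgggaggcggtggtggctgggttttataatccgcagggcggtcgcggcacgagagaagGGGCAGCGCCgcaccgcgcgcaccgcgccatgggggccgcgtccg
The Bdkrb2 promoter had 3 matches, of which 2 overlapped, and the Ace promoter had 2. Of 32851 promoters of 300 bases, 50.8% held at least 1 such match, so that these letters are common in windows of this length. Neither promoter held TTTC, any 2 bases and TTTC, the motif searched for interferon response elements, nor TTC, any 3 bases and GAA, the motif searched for STAT factors, which 3.44% and 8.30% of all promoters held. Among the members a promoter was listed for 8 of 10 genes, 15 promoters in all, because Ace, Mme, Ece1 and Xpnpep1 have several. Among these 15, the interferon response motif was matched only in the fourth Ece1 promoter, and the STAT motif, which reads alike on both strands, only in the first Mme promoter. The Bdkrb2 promoter was 61.7% G or C with 10 CpG sites, and the Ace promoter 69.7% with 29 CpG sites, against a median of 52.7% and 7 CpG sites over all promoters. In the RefSeq annotation no other gene lies between Bdkrb1 and Bdkrb2.

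Tests covered the 29361 of 55681 probes that were detected, by the flag for spots well above background, for either condition of a comparison on 3 or 4 of its arrays. App, the mouse gene of the amyloid precursor, differed between APP_WT and WT by 0.12 on the log2 scale (SE 0.04, limma adjusted p = 0.0925, n = 4 arrays), with its mouse probe, whose match to the part-mouse, part-human APP transgene is not given in the sources used here. Replicate 2 of APP_WT versus WT stood apart in background, with the 95th percentile of the negative-control spots at 213.55 in the green channel against 44.825 to 69.4 on the other 11 arrays. Values given without a replicate leave out that replicate number in all 3 comparisons. One slide held the 4 arrays with WT cells and another the 8 arrays with treated cells, so that levels of APP_WT on both slides differ also by slide, whereas each ratio was formed within an array. Neuron, astrocyte and oligodendrocyte markers passed the filter (7 of 7, 6 of 6 and 7 of 7 genes), as the labels' neural cells would carry.

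The B2 receptor gene Bdkrb2 (probe A_55_P2053978) was not well above background in any of the 24 channels. Its raw signal, in scanner units, was 39.5, 50, 51.5 and 59 in the 4 WT channels. In the 12 APP_WT channels it ran from 42 to 56.5 with a median of 51.5. It was 42, 47.5, 53 and 55.5 in BK_APP, and 45.5, 46, 48 and 48 in HOE_APP. The ranges of the 4 conditions overlapped throughout, and they lay around the 95th percentile of the negative-control spots, whose median over the arrays was 53.3 in Cy3 and 54.2 in Cy5. The signal was over that percentile of its own array in 10 of 24 channels.

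The B1 receptor gene Bdkrb1 (probe A_55_P2014460) was likewise not well above background in any channel. Its raw signals were 49, 52, 53 and 60 in WT, 43.5 to 66 with a median of 50.5 in the 12 APP_WT channels, 57, 60, 60 and 70 in BK_APP and 46, 48, 50 and 55 in HOE_APP. The 4 BK_APP signals were above the 4 HOE_APP signals, but these channels were on different arrays, and with the HOE_APP channels read the other way the HOE_APP signals would be 43.5 to 60 and overlap them. Within the BK_APP arrays the log2 ratios to APP_WT were 0.17, −0.19, 0.39 and 0.17 and so not of 1 sign. Both receptor probes stayed out of the tests because they did not pass the filter. A signal at background gives only an upper bound on the mRNA, and the arrays hold no measure of the receptor proteins.

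**Figure D1:**
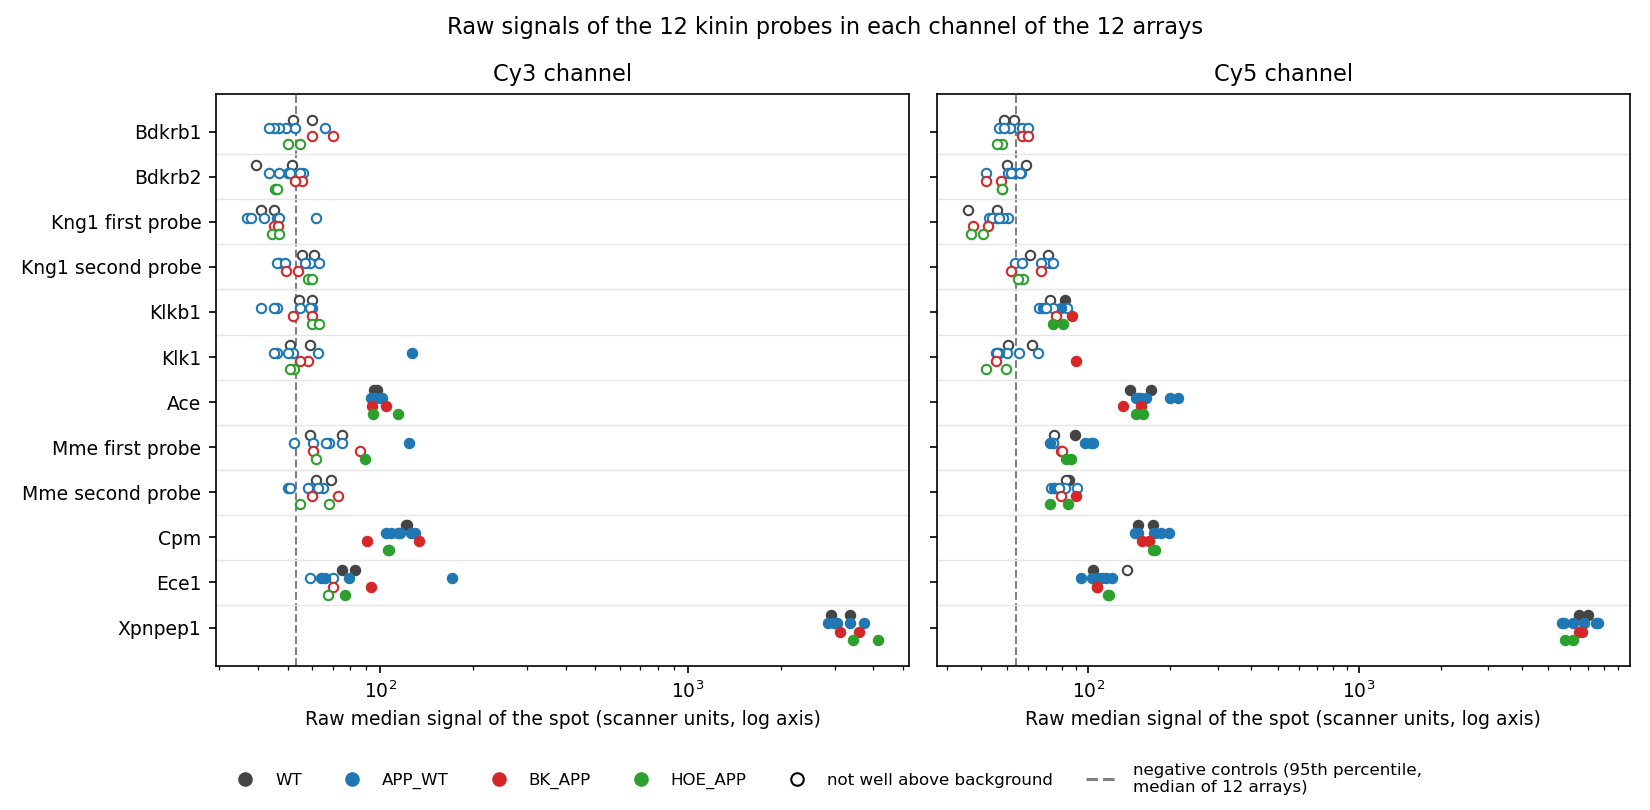
Raw median signal (x axis, scanner units, log axis) of the 12 kinin probes (y axis) in the Cy3 and Cy5 channels of the 12 arrays, with 1 point per channel, colored by condition, filled where the scanner software called the spot well above background. The dashed line is the median over arrays of the 95th percentile of the negative-control spots (53.3 in Cy3 and 54.2 in Cy5), around which the Bdkrb1 and Bdkrb2 points lie without a filled one.

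Kng1 encodes the kininogen from which kinins are released. Its first probe (A_55_P2003410) had raw signals of 36 to 62 and its second (A_55_P2003414) of 46 to 74, and neither was well above background in any channel. The second probe was over the negative-control percentile in 14 of 24 channels and the first in none. In WT the second probe gave 55.5, 61, 61 and 71, inside the range of 46 to 74 of the 12 APP_WT channels. The log2 ratios of both probes on the 12 arrays ran from −0.17 to 0.30. Kng2, a close paralog with its own probe, was well above background in 1 Cy3 and 1 Cy5 channel of 24 and did not pass the filter, and how far the kininogen probes read each other's transcripts is not known.

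Klkb1, which encodes plasma prekallikrein, the protease of the contact system, was well above background in 6 of 24 channels, and all 6 were Cy5. They were 1 of 4 WT, 2 of 12 APP_WT, 1 of 4 BK_APP and 2 of 4 HOE_APP channels. Its raw signals were 41 to 63 in Cy3 and 66 to 87 in Cy5, so that the dyes did not overlap while the conditions did. On the HOE_APP arrays the log2 ratios were 0.43 and 0.40 where HOE_APP was the Cy5 sample and 0.02 and 0.06 where it was the Cy3 sample. The probe did not pass the filter and was not tested.

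Klk1, the tissue kallikrein that releases kinin from low-molecular-weight kininogen, was well above background on 1 array only, replicate 2 of BK_APP versus APP_WT, in both channels. The raw signals there were 127 in APP_WT and 90 in BK_APP, and the log2 ratio was −0.88. In the other 22 channels the raw signal ran from 42 to 65, and the other 3 arrays of that comparison had log2 ratios of 0.01, −0.04 and 0.18. Klk1 belongs to a cluster of near-identical Klk1b genes, and its probe may read more than 1 of them.

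All 5 peptidase genes had a probe that passed the filter. Ace, the angiotensin-converting enzyme, which inactivates BK by removing C-terminal dipeptides and forms angiotensin II, was well above background in 23 of 24 channels (probe A_52_P68028), the exception being APP_WT on the array with the high negative-control spots. In Cy3 its raw signal was 95.5 and 97.5 in WT, 93 to 101 in the 6 APP_WT channels, 94 and 104 in BK_APP, and 95 and 114.5 in HOE_APP. In Cy5 it was 142.5 and 171 in WT, 201 and 215 in APP_WT of the same slide, 150 to 163 in APP_WT of the slide with treated cells, 134 and 157 in BK_APP, and 150 and 159 in HOE_APP. The 201 and 215 of APP_WT were the highest Ace signals of all channels, and the Cy3 channels of the same slide showed no such gap between APP_WT (95 and 101) and WT.

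Mme, or neprilysin, a membrane endopeptidase that cuts kinins and other peptides, was near the limit of detection. Its first probe (A_52_P93837) was well above background in 9 of 24 channels, 2 in Cy3 and 7 in Cy5. It passed the filter only through HOE_APP, where it was detected on 3 of 4 arrays. With the HOE_APP arrays read the other way, those channels would be APP_WT, and the probe would pass through APP_WT. The raw signals of this probe were 59, 75, 75 and 89 in WT, 52.5 to 124 with a median of 74 in APP_WT, 60.5, 79.5, 80 and 86 in BK_APP, and 62, 82.5, 86 and 89 in HOE_APP. The second Mme probe (A_66_P113268) was well above background in 5 channels, all Cy5, and did not pass the filter. The ranges of the 4 conditions overlapped for both probes.

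Cpm, carboxypeptidase M, removes the C-terminal arginine of kinins and thereby turns B2 agonists into B1 agonists. It was well above background in all 24 channels (probe A_51_P304397). Its raw signals were 90.5 to 134 in Cy3 and 149 to 198 in Cy5, and within each dye the ranges of the 4 conditions overlapped those of APP_WT. The lowest and the highest Cy3 signal, 90.5 and 134, were both of BK_APP.

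Ece1, a membrane peptidase that processes endothelin and cuts BK, was well above background in 19 of 24 channels (probe A_55_P2230638). Against WT, the Cy3 signals of APP_WT were 59 (replicate 1) and 171 (replicate 2), and they were 64 to 79 on the 4 other arrays. The signal of 171 was on the array with the high negative-control spots, and in the Cy5 channel of that array the WT signal of 139.5 was not well above background although it was the highest Cy5 signal of the probe. Xpnpep1, the cytosolic aminopeptidase P, which removes the first residue of BK, was well above background in all 24 channels (probe A_55_P1997275), with raw signals of 2847 to 4135 in Cy3 and 5623 to 7639 in Cy5.

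On the scale of log2 levels normalized over all channels, the order of the conditions was not the same for the 5 probes. Ace was at 7.13 ± 0.05 (SD, n = 4 channels) in BK_APP, 7.14 ± 0.06 in WT, 7.24 ± 0.13 (n = 12 channels) in APP_WT and 7.26 ± 0.14 in HOE_APP. The first Mme probe was lowest in WT (6.50 ± 0.15) and highest in HOE_APP (6.72 ± 0.20), the condition through which it passed the filter. Cpm was lowest in BK_APP (7.26 ± 0.11) and highest in APP_WT (7.35 ± 0.13). Ece1 lay between 6.83 ± 0.03 in WT and 6.89 ± 0.21 in HOE_APP, and Xpnpep1 between 12.13 ± 0.01 in WT and 12.20 ± 0.10 in APP_WT. For each probe, conditions next to each other in this order differed by less than the larger of their SDs. These SDs hold spread between arrays and slides that a ratio within an array leaves out, so that they do not test the conditions. The 12 APP_WT channels are also not 12 independent samples, since replicate numbers were taken to pair the samples across comparisons. With the HOE_APP arrays read the other way the order changed, with HOE_APP at 6.61 ± 0.14 below APP_WT (6.67 ± 0.27) for the first Mme probe, highest for Ace (7.28 ± 0.09), Cpm (7.37 ± 0.13) and Xpnpep1 (12.19 ± 0.10), and lowest for Ece1 (6.77 ± 0.02), where it was below WT by more than the SD of either.

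Detection of the 12 probes followed the dye. They were well above background in 46 of 144 Cy3 channels (31.9%) and in 66 of 144 Cy5 channels (45.8%), and for Klkb1 and the second Mme probe no Cy3 channel was detected. Over the whole array 45.2% to 52.4% of probes were well above background in the green channel and 47.5% to 60.1% in the red. No spot of the 12 probes was saturated or uneven.

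**Figure D2:**
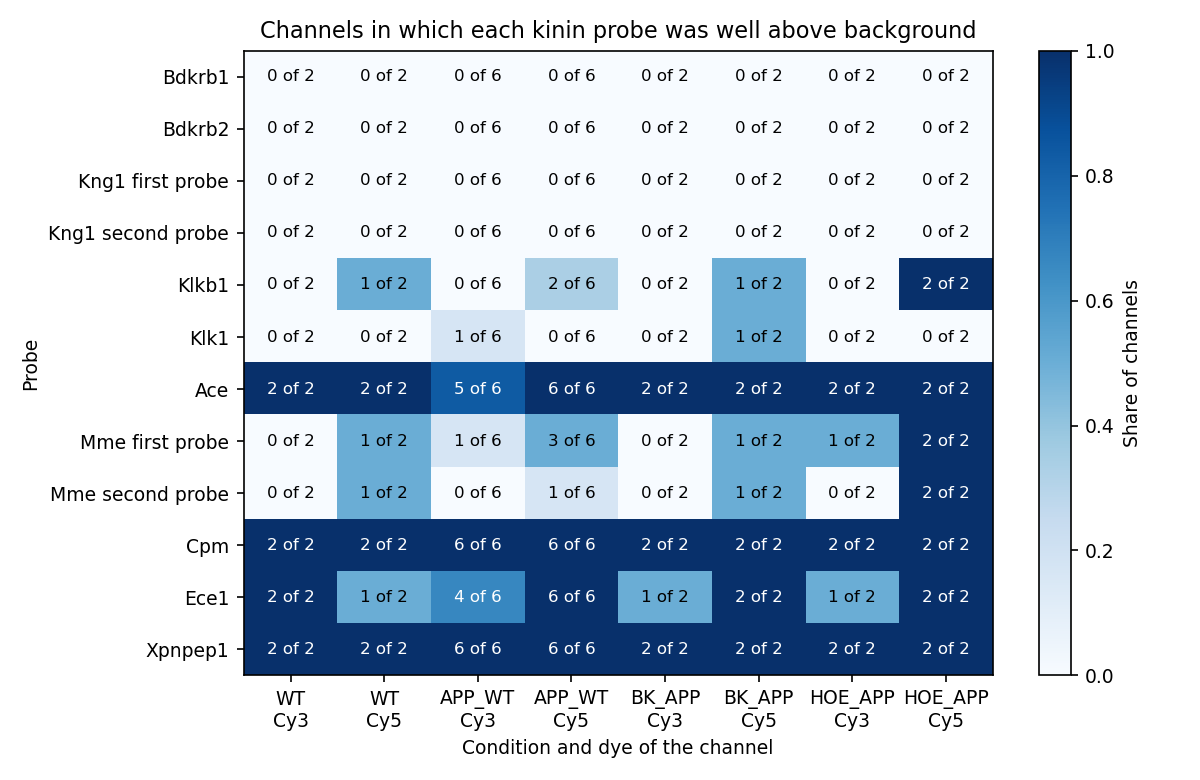
Number of channels in which each kinin probe (y axis) was called well above background, by condition and dye (x axis), of all channels of that kind, with the shade giving the share from 0 to 1. Bdkrb1, Bdkrb2 and both Kng1 probes are at 0 in every column, and Cpm and Xpnpep1 are detected in every channel.

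The comparison of APP_WT with WT asked what the transgenes changed in untreated cells. None of the 5 tested kinin probes passed the limma adjusted threshold of 0.05, while 18.5% of all tested probes did, 11.6% higher and 7.00% lower. All 5 estimates were above 0 in this fit, with a median of 0.11 on the log2 scale against 0.004 over all tested probes. With 1 replicate left out, the lowest Ece1 estimate was −0.15, while the estimates of the other probes stayed above 0. Under other processing the lowest estimate was −0.07 for Ace, −0.15 for Cpm and −0.09 for Xpnpep1. Some of these settings also moved the median of all probes below 0. The first Mme probe stayed above 0 throughout, with 0.09 as its lowest estimate. At an unadjusted limma p under 0.05 there were 2 of the 5, Ace and the first Mme probe, against 31.8% of all tested probes. By the combination of SAM and rank products that the study's methods give, 0 of 5 were called against 8.63% of all probes. With 5 probes these counts allow no statement on the group as a whole.

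The log2 ratio of Ace in APP_WT over WT was 0.04, −0.03, 0.27 and 0.28 on replicates 1 to 4. The ratio was near 0 where APP_WT was the Cy3 sample and higher where it was the Cy5 sample. The estimate was 0.14 (SE 0.05, 95% interval 0.02 to 0.25, limma adjusted p = 0.0947, n = 4 arrays). With the replicate number as a block the estimate was 0.17 and passed the threshold (limma adjusted p = 0.0478). With the processed signals of the scanner software it was −0.01 and with the deposited ratios −0.07, and neither was called. The median of all probes was itself −0.02 with the processed signals and −0.08 with the deposited ratios.

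The first Mme probe had log2 ratios of 0.84, 0.24, −0.01 and −0.13 and an estimate of 0.24 (SE 0.09, limma adjusted p = 0.0849, n = 4 arrays). The 2 arrays above 0 were those with APP_WT in Cy3. Without replicate 1 the estimate was 0.09, and without replicate 2 it was 0.39 and called. The fit without replicate 2 left replicate 1, at 0.84, as the only array with APP_WT in Cy3. With the dye coefficient that array was fitted exactly, so that this call rests on it. The second Mme probe, which was not tested, had ratios of −0.23, −0.01, −0.14 and −0.05, all below 0, so that the probes of this gene disagreed in sign.

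Ece1 had log2 ratios of −0.26, 0.80, −0.02 and −0.07 and an estimate of 0.11 (SE 0.13, limma adjusted p = 0.597, n = 4 arrays). Only replicate 2, the array with the high negative-control spots, was above 0. Without it the estimate was −0.15, and without replicate 1 it was 0.38 and called. The fit without replicate 1 left replicate 2 as the only array with APP_WT in Cy3. With the dye coefficient that array was fitted exactly, so that this call rests on it.

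Cpm had log2 ratios of 0.37, 0.22, −0.21 and −0.20 and an estimate of 0.05 (SE 0.05, limma adjusted p = 0.575, n = 4 arrays). The sign followed the dye and not the genotype, and the dye coefficient of this probe was −0.25 (limma adjusted p = 0.0236), where 4.82% of all probes had a dye coefficient past the threshold. Xpnpep1 was above 0 on all 4 arrays, at 0.08, 0.16, 0.003 and 0.06, and 1 of the 5 probes thus had 1 sign on all arrays, against 27.0% of all probes. Its estimate was 0.07 (95% interval −0.03 to 0.18, limma adjusted p = 0.313, n = 4 arrays).

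**Figure D3:**
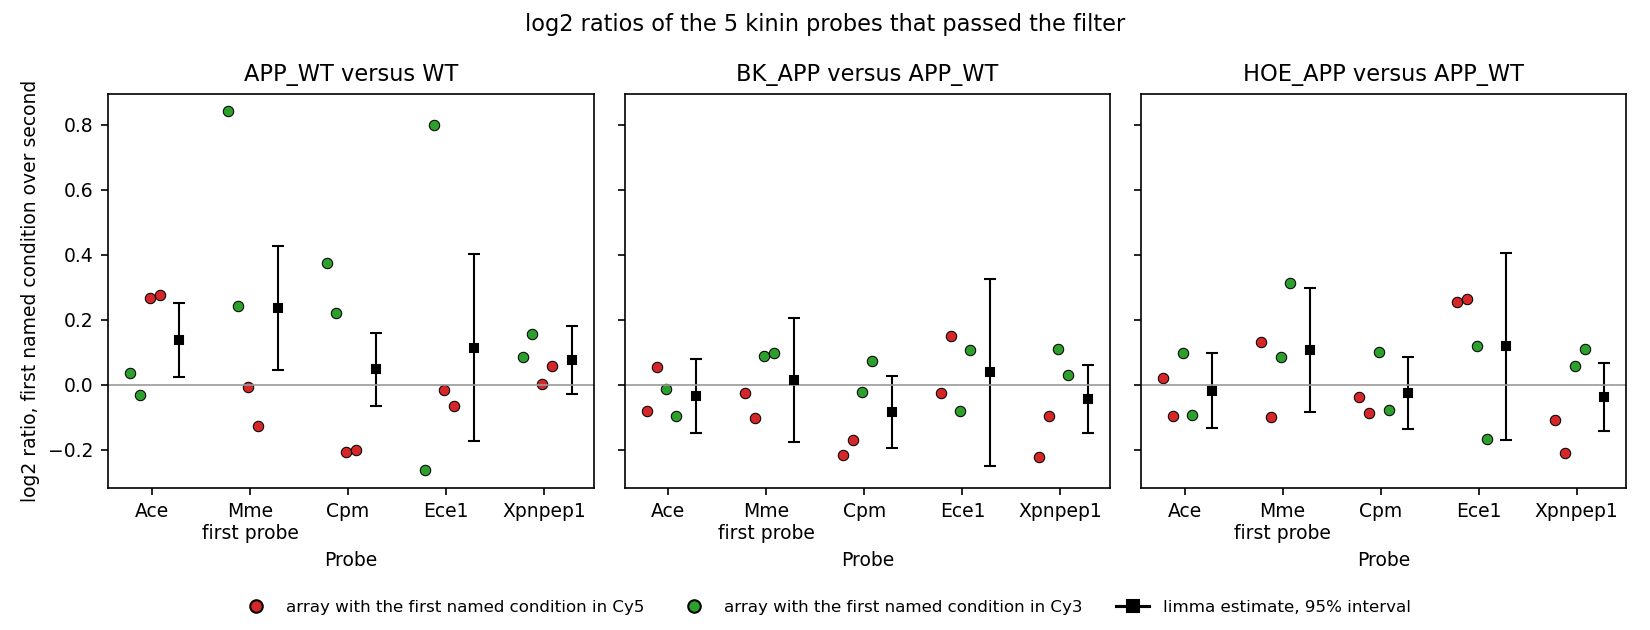
log2 ratios (y axis, first named condition over the second) of the 5 kinin probes that passed the filter (x axis) in the 3 comparisons, with 1 point per array, colored by the dye of the first named condition, and squares with bars for the limma estimate and its 95% interval. In APP_WT versus WT the Cpm points lie at 0.22 and 0.37 in 1 dye orientation and at −0.21 and −0.20 in the other, and in the treated comparisons every interval spans 0.

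The comparisons with BK_APP and HOE_APP asked what the agonist and the antagonist of the B2 receptor changed in the transgenic cells, including the genes of their own pathway. None of the 5 tested kinin probes was called in either comparison. No probe of the whole array was called (0% in both), so that this count says nothing particular to the kinin genes. At an unadjusted limma p under 0.05 there were 0 of 5 in both, against 4.47% of all probes in BK_APP and 5.03% in HOE_APP. SAM and rank products called 0 of 5 in both, against 0.817% and 1.16% of all probes. None of the 5 had 1 sign on all 4 arrays of either comparison, against 9.72% and 10.7% of all probes.

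In BK_APP the estimates ran from −0.08 for Cpm to 0.04 for Ece1. The Cpm ratios were −0.22, −0.17, −0.02 and 0.07, with an interval of −0.20 to 0.03. The Ace ratios were −0.08, 0.05, −0.01 and −0.10, and the estimate of −0.03 had an interval of −0.15 to 0.08. Mme was at 0.02 (first probe), with an interval of −0.18 to 0.21. Xpnpep1 was at −0.04, with ratios of −0.22 and −0.10 where BK_APP was in Cy5 and of 0.11 and 0.03 where it was in Cy3.

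In HOE_APP the estimates ran from −0.04 for Xpnpep1 to 0.12 for Ece1. The Ece1 ratios were 0.25, 0.26, 0.12 and −0.17, and the interval of −0.17 to 0.40 was the widest of the 5. The Ace ratios were 0.02, −0.10, 0.10 and −0.09 around an estimate of −0.02, with an interval of −0.13 to 0.10. The first Mme probe had ratios of 0.13, −0.10, 0.09 and 0.31 and an estimate of 0.11, with an interval of −0.08 to 0.30. Cpm was at −0.03 and Xpnpep1, with ratios of −0.11, −0.21, 0.06 and 0.11, again changed sign with the dye.

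BK and HOE-140 were given at the same dose and days, so that the difference of their effects was tested in the same model for the 5 probes. The comparisons share the condition APP_WT, on different arrays. This model held no term for the replicate number, which was taken to pair the samples. The intervals and p values given here therefore leave out that pairing. With the replicate number as a block none of the 5 differences was called. BK_APP minus HOE_APP ran from −0.09 for Mme to −0.006 for Xpnpep1, and no difference was called (limma adjusted p of 1.0 for all 5, 2.50% of all probes at an unadjusted p under 0.05 and 0 of the 5). The intervals were −0.18 to 0.15 for Ace, −0.36 to 0.18 for Mme, −0.22 to 0.10 for Cpm, −0.49 to 0.33 for Ece1 and −0.15 to 0.14 for Xpnpep1. With the HOE_APP arrays read the other way the differences ran from −0.11 for Cpm to 0.15 for Ece1, with Mme at 0.12, and none was called (lowest limma adjusted p 0.690). These are limits of the data and do not show that the compounds act alike.

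Around these 10 genes, a list of 69 other genes of kinin release, breakdown, inhibition and signaling and of the linked angiotensin system was examined. All 69 had a probe and 38 passed the filter. In APP_WT versus WT 11 rose and 2 fell (34.2% of 38, against 18.5% of all tested probes), with a median of 0.09 against 0.004 over all probes. Here and in the lists below, each gene is read by its brightest probe past the filter. The shares over all probes count every tested probe, dim ones among them, so that the shares are not of the same unit. By SAM and rank products 4 of 38 were called (10.5%, against 8.63% of all probes). The limma count fell from 13 to 7, 5, 5 and 8 without replicates 1, 2, 3 and 4, of which replicate 2 is the array with the high negative-control spots. In BK_APP, HOE_APP and BK_APP minus HOE_APP 0 of 38 were called by limma. At an unadjusted limma p under 0.05 there were 2 (5.26%, against 4.47% of all probes), 5 (13.2% against 5.03%) and 2 (5.26% against 2.50%). SAM and rank products called 0 in BK_APP and 0 in HOE_APP, against 0.817% and 1.16% of all probes.

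The genes that start kinin release were mostly undetected. Of 17 activation genes 4 passed the filter, and none was called. Factor XII (F12), which activates plasma prekallikrein, was not well above background in any channel. Klk1b8 had log2 ratios of 0.06, 0.09, 2.21 and 0.02 in HOE_APP, so that its estimate of 0.59 (SE 0.25, limma adjusted p = 0.924, n = 4 arrays) rested on replicate 3. Without replicate 4 this gene was called, in a fit that left replicate 3 as the only array with HOE_APP in Cy3.

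Both inhibitor genes that passed the filter, of 5, rose in APP_WT, where 11.6% of all tested probes were called higher. Serping1, the C1 inhibitor, which blocks plasma kallikrein and factor XII, had log2 ratios of 1.50, 0.91, 1.31 and 1.37 and an estimate of 1.27 (SE 0.16, limma adjusted p = 0.000265, n = 4 arrays), and its other probe was at 0.84. A2m, α2-macroglobulin, a broad protease inhibitor, had ratios of 0.58, 0.64, 0.57 and 0.74 and an estimate of 0.63 (SE 0.08, limma adjusted p = 0.000423, n = 4 arrays). All 4 arrays of both genes were above 0 in both dye orientations. Neither was called in BK_APP or HOE_APP, and both were called without any single replicate.

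Among 18 further peptidases 10 passed the filter, and 2 rose in APP_WT (20.0%, near the 18.5% of all tested probes that were called). Nln, neurolysin, was at 0.30 (limma adjusted p = 0.00455, n = 4 arrays) with ratios of 0.55, 0.29, 0.18 and 0.18, and its other probe was at −0.06 and not called. It was called under 10 of 14 refitted alternatives. Thop1, thimet oligopeptidase, which like neurolysin cuts BK in the middle, was at 0.22 (limma adjusted p = 0.0405, n = 4 arrays), with 0.49 on replicate 2 and 0.11 to 0.14 on the others, and was called under 4 of the 14. Anpep, aminopeptidase N, had 1.21 on replicate 2, the array with the high negative-control spots, and ratios below 0 on the others.

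Of 21 genes of receptor signaling 18 passed the filter, and 6 rose and 2 fell in APP_WT (44.4%, against 18.5% of all tested probes). Ptgs1, cyclooxygenase 1, had log2 ratios of 0.57, 0.36, 0.61 and 0.78 and an estimate of 0.58 (SE 0.07, limma adjusted p = 0.000178, n = 4 arrays). In WT cells Ptgs1 stayed below the detection flag on all 4 arrays, and its APP_WT level was at least 1.43-fold higher than a WT reference. On each array that reference was the higher of the probe's own WT level and the dimmest detected level of the WT channel. With the processed signals the estimate of Ptgs1 was 2.43. Ptgs2, the inducible cyclooxygenase, was not well above background in any channel. Nos3, endothelial nitric oxide synthase, was at 0.31 (limma adjusted p = 0.0128, n = 4 arrays), with its other probe at 0.18 and also called, and was called under 8 of the 14 alternatives.

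The G protein subunit Gnai2 was at 0.30, the β-arrestins Arrb1 and Arrb2, which desensitize receptors, at 0.24 and 0.21, and the phospholipase Plcb3 at 0.19. The phospholipase Plcb1 was at −0.30 and the IP3 receptor Itpr1, which releases calcium from stores, at −0.22. The other Plcb1 probe was at −0.17 and not called (limma adjusted p = 0.0762, n = 4 arrays). The limma adjusted p of these 6 ran from 0.00359 for Gnai2 to 0.0427 for Plcb3. Of the 14 alternatives, Gnai2 and Plcb1 were called under 10, Arrb1 and Itpr1 under 9, Arrb2 under 4 and Plcb3 under 3. Over these alternatives Plcb3 ran from 0.08 to 0.26, Arrb1 from 0.08 to 0.32, Arrb2 from 0.10 to 0.26 and Gnai2 from 0.11 to 0.38. Among 7 angiotensin genes 4 passed and 1 was called (25.0%, against 18.5% of all tested probes). This was Mas1, a receptor of angiotensin peptides, at 0.21 (limma adjusted p = 0.0309, n = 4 arrays). However, Mas1 was well above background on 1 of 4 arrays in either condition of this comparison and passed the filter through another. It was called under 6 of the 14.

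**Figure D4:**
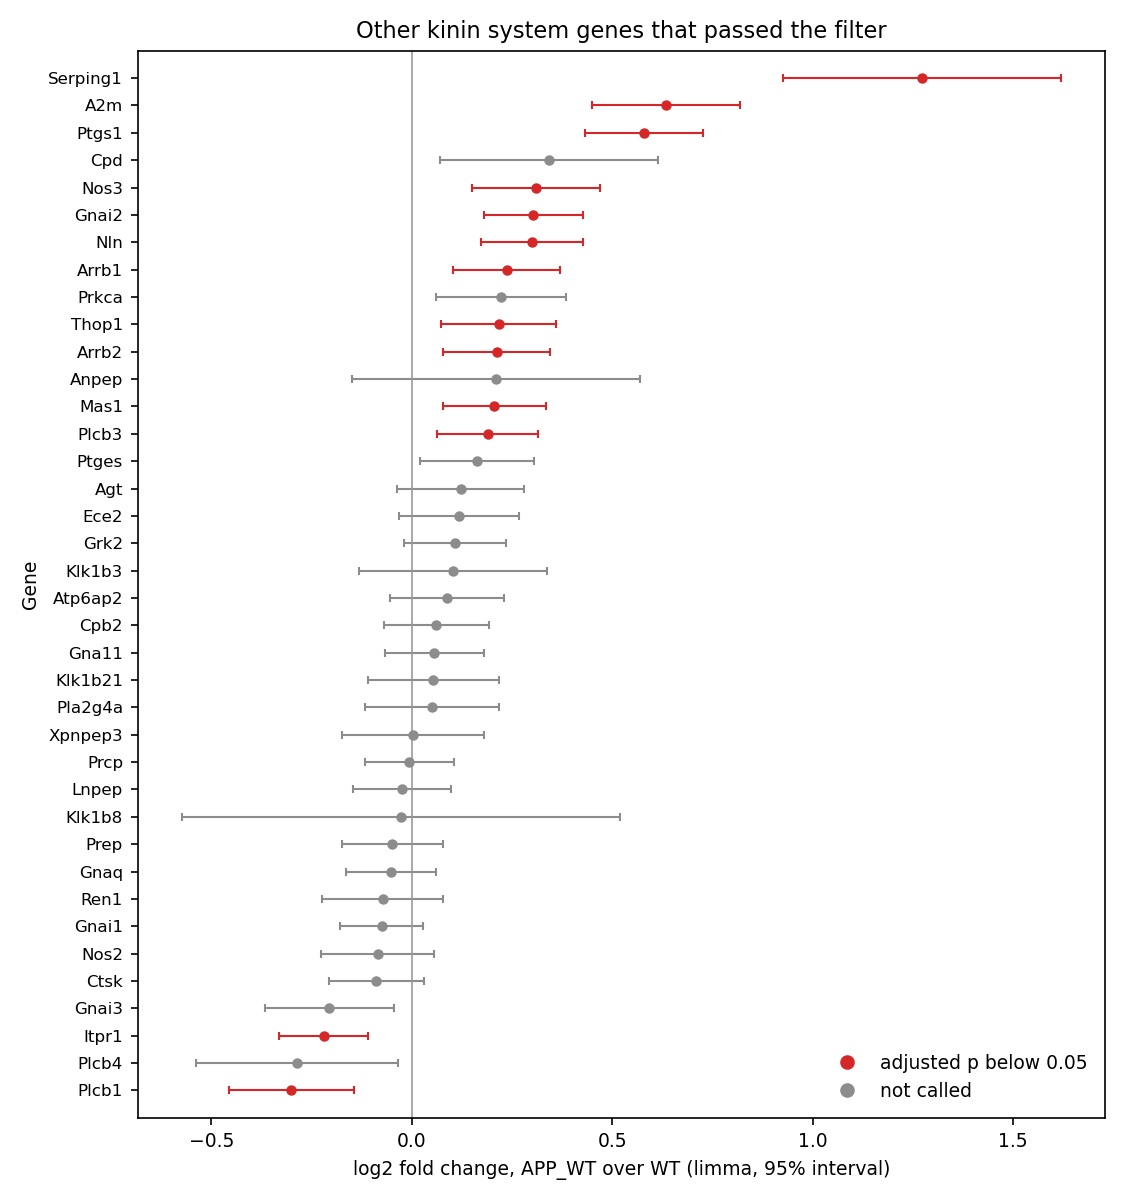
log2 fold change of APP_WT over WT (x axis, limma estimate with its 95% interval) for the 38 other kinin system genes that passed the filter (y axis, sorted), in red where the adjusted p was below 0.05. Serping1 at 1.27 and A2m at 0.63 stand at the upper end and Plcb1 at −0.30 at the lower, and the place of Ptgs1, drawn at 0.58, is not measured, since WT was below the detection flag.

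Markers of several cell types also passed the limma threshold in APP_WT versus WT, where 11.6% of all tested probes were called higher and 7.00% lower. Of 7 microglial markers that passed the filter 7 rose, with a median of 1.60 on the log2 scale, and their summed level was 2386 to 4084 in the WT channels and 5046 to 7125 in the APP_WT channels, in normalized intensity. Of 5 ependymal markers 5 rose (median 1.55), of 6 astrocyte markers 5, of 6 choroid plexus markers 3, and of 4 endothelial markers 1. Of 6 pericyte and fibroblast markers 3 fell (median −0.20), of 7 neuronal markers 1 rose and 2 fell, and of 7 oligodendrocyte markers 1 fell. The endothelial (25.0%) and oligodendrocyte (14.3%) shares rest on 1 gene each and are near the 18.5% of all tested probes that were called. Of the peripheral myeloid markers 1 passed the filter and it was not called. The part of these cell types in the values of Serping1, A2m, Ptgs1, Nos3 and the other kinin genes, and in those of Ace and Mme, was not tested. In RNA of whole cultures more cells of a type and more RNA per cell cannot be told apart. In BK_APP and HOE_APP limma called 0 markers of any list and 0% of all probes. SAM and rank products called 1 choroid plexus marker in each and 2 oligodendrocyte markers in HOE_APP. Over all probes they called 0.817% in BK_APP and 1.16% in HOE_APP.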

How the data were processed

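RNA of 4 conditions was measured on 12 2-color Agilent arrays. The authors deposited the scanner output, whose headers name Feature Extraction 11.0.1.1, another version than the one in the study's methods, with the raw median intensity of each spot and of its local background, flags for detection, processed intensities already background-subtracted and dye-normalized, and a log10 ratio of the processed red over green signals. A further table the authors deposited gives log2 ratios, whose normalization is not given in the sources used here. They correlated with the scanner log ratio at 0.99856 or more on each array, so that this table and the processed signals, both used as alternatives, are not independent of each other.

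The median signals entered limma 3.58.1 under R 4.3.3, were corrected by normexp with an offset of 50, which shrinks the ratios of dim probes, and normalized within each array by loess (span 0.3), with weight 0 for control and uneven spots. Mean signals, which the written design assumed, were not used here. The 3671 control spots of 62976 took no part in tests, and replicate spots were averaged. Raw signals are not comparable between arrays or dyes without normalization, and detection is the scanner software's flag for a spot well above background. Probes were named through their RefSeq accession (27509 of 29150 matched), with a gene table of another assembly used for names only. For a gene with several probes past the filter, lists used the probe of highest mean intensity. The number of arrays limits the precision.

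A single model of the 12 arrays held, for each comparison, its mean and its dye effect (6 residual and 4.56 prior degrees of freedom). Tests were two-sided, with Benjamini-Hochberg adjustment over 29361 probes and 0.05 as threshold. Every p printed is from this moderated test. Scripts were tested on simulated data. SAM and rank products were programmed anew after the methods, with calls where each had an unadjusted p no higher than 0.05. Replicates with the same number deviated together in all 6 correlations between comparisons within a dye orientation, whose arrays mirror each other, after turning the sign for the shared APP_WT (0.205 to 0.507), so that the numbers were taken to pair the samples. The blocked value is given where it changed the call of a named gene.

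Named were all 10 genes by each probe, other kinin genes past the threshold and up to 6 more, App, and 3 genes chosen after their values were seen. Some genes of the written lists are not reported here, and no count holds them. The 10 genes and all lists were chosen with earlier results of these data known, so that no count is independent support. Peptide and protein sequences are not shown.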

Additional observations from a re-analysis of the deposited data

Results flagged for a closer look

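Of 81 sets of 4 log2 ratios, 4 held an array far from the other 3, with a gap to its neighbor that took most of the range. Chance alone gives such a gap in a small part of sets, about 5 in 100. In APP_WT versus WT the gap took 0.948 of the range for Thop1 (replicate 2 at 0.49) and 0.914 for Anpep (replicate 2 at 1.21), both on the array whose negative-control spots were high. In HOE_APP versus APP_WT it took 0.965 for Klk1b8 (replicate 3 at 2.21). In BK_APP versus APP_WT it took 0.967 for Arrb2 (replicate 4 at −0.11, the others at 0.11 to 0.12). None of the 12 kinin receptor, kininogen, kallikrein and peptidase probes held such an array.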

How the results depend on the processing

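The 15 alternatives changed the background correction, normalization, filter, model or arrays. In BK_APP, HOE_APP and BK_APP minus HOE_APP none of the 5 tested peptidase probes was called under any of them (lowest limma adjusted p 0.466, in HOE_APP). In APP_WT versus WT 1 was called with the replicate block (Ace), and leaving out each replicate gave 0 to 1 (Mme without replicate 2, Ece1 without replicate 1). The other kinin genes called in APP_WT versus WT numbered 13, and 8 without a dye coefficient, 4 with each comparison fitted alone, 4 by SAM and rank products and 5 to 8 when each replicate was left out. Of the 13, Serping1, A2m and Ptgs1 were called under all 14 refitted alternatives and the other 10 under 3 to 10. With the replicate block 16 were called, the 13 among them, and the other 3, named after their values were seen, were Ece2 (0.12 without the block and 0.20 with it, limma adjusted p = 0.0155), Gnai3 (−0.21 and −0.24, 0.0256) and Plcb4 (−0.29 and −0.42, 0.00317). Of the 5 tested peptidase probes the block changed the call of Ace only. Reading the HOE_APP arrays the other way, an alternative chosen after seeing the data, left 0 peptidase probes called in BK_APP minus HOE_APP. In HOE_APP leaving out each replicate gave 0 to 1 of those genes (Klk1b8 without replicate 4). App in APP_WT versus WT was called with the processed signals (0.19, limma adjusted p = 0.0198) and with the deposited ratios (0.13, 0.0481), and not with median centering in place of loess (−0.062). With that centering App in HOE_APP versus APP_WT was 0.091. The median of all tested probes was then −0.065 in APP_WT versus WT and 0.076 in HOE_APP versus APP_WT, near the App values. No called value turned its sign. The cause of these changes was not tested, other than the smaller number of arrays where 1 was left out. Leaving out 1 replicate also left 1 array of each comparison alone in its dye orientation. With the dye coefficient that array was fitted exactly, so that calls in such fits can rest on 1 array. The deposited ratios moved the median of all probes to −0.08 in APP_WT versus WT. The first Mme probe had no value from that table. Dim signals set the limit, since 7 of 12 probes were too close to background to be tested.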
